A study of Arabidopsis thaliana with 9 samples.

Results

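The 300 regions described here are the accessible chromatin regions of the Arabidopsis thaliana root that stood out most in nucleus clusters 14, 15 and 16, taken from 20803 regions in all. Each cluster column was scaled to a total of 10000, and the mean of the 3 clusters was divided by the mean of the other 18 after 0.1 was added to each. The 300 regions with the highest ratio were taken. The accessibility data came from 2 single-nucleus ATAC libraries, in which a transposase cuts open chromatin, made from whole roots of 7-day-old Col-0 seedlings grown on MS plates. RNA was measured in 5 single-nucleus libraries from roots of the same genotype and age. A further table held RNA of whole cells in 20 clusters, with no cluster 14, and its plants are not described in the labels. Nuclei were released by chopping and purified by flow sorting, and the labels give no treatment and no other genotype for these nuclei.

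The endodermis is the innermost ring of ground tissue around the vascular cylinder of the root. It first builds the Casparian strip, a belt of lignin in its side walls that blocks passage between cells. Later it lays down suberin, a polyester of fatty acid derivatives and phenolics, over its whole surface. The transcription factor SHR moves outward from the stele and acts with SCR and zinc finger proteins to set this cell fate, MYB36 turns on Casparian strip genes, and a group of MYB factors that includes MYB39, MYB53, MYB92, MYB93 and MYB107 acts on suberin genes.

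Each table gives 1 average per cluster over pooled libraries. No value therefore has a replicate error, no p-value is given, and every difference describes these pooled averages. The number of nuclei per cluster and the depth are unknown. Deposited column totals of the accessibility table lay between 10532.3 and 14124.8. The average of a region over the 21 clusters hardly varied, with a 25th percentile of 0.453, a median of 0.483 and a 75th percentile of 0.507. It did not grow with region width across the 20803 regions (Spearman correlation -0.20). The values thus behaved as if set to a common level per region, so they compare clusters within a region and not the openness of different regions. How accessibility nuclei received the cluster numbers of the RNA data is not given in the sources used here.

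RNA markers placed clusters 14 and 16 in the endodermis more clearly than cluster 15. The summed RNA of 26 Casparian strip genes was 24.9 per 10000 in cluster 14, 50.2 in cluster 15 and 610.8 in cluster 16, against 8.36 to 82.6 in the others. That of 25 suberin genes was 238, 76.7 and 44.5, against 2.11 to 9.35. RNA values are a share per 10000 of a cluster's total, and a floor of 0.5 in some cluster was asked of a gene before it was counted. Past this floor, cluster 16 held the highest value of 17 of 25 Casparian strip genes and cluster 14 that of 18 of 23 suberin genes. Cluster 15 held the highest value of 1 and 3. The Casparian strip sum of cluster 15 lay below that of cluster 13, at 82.6. Of these sums, only that of the suberin genes put cluster 15 above every cluster other than 14 to 16. Summed RNA of the 9 root hair, 8 xylem and 6 phloem markers stayed at or below 4.61, 0.527 and 0.255 in clusters 14 to 16, against highest sums of 345, 82.6 and 29.7 elsewhere. That of 9 ground tissue regulators did not set clusters 14 to 16 apart. It was 1.10, 4.43 and 4.10 there, against 0.214 to 7.24 elsewhere, with the high end in cluster 13.

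The rule made the members high in clusters 14 to 16, and these levels are given as a description. The median member stood at 1.39 in cluster 14, 1.03 in cluster 15 and 1.24 in cluster 16, where the median of all regions was 0.436, 0.470 and 0.441. In the other 18 clusters the median member lay between 0.143, in cluster 4, and 0.397, in cluster 13. Next to cluster 13 came cluster 11 at 0.376 and cluster 18 at 0.362. Those 3 clusters were the least depleted, and among the other 18 the highest value of a member was in cluster 13 for 58 members and in cluster 11 for 49. The ratio ran from 13.3 to 2.63 with a median of 3.29, against a median of 0.967 over all regions.

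**Figure D1:**
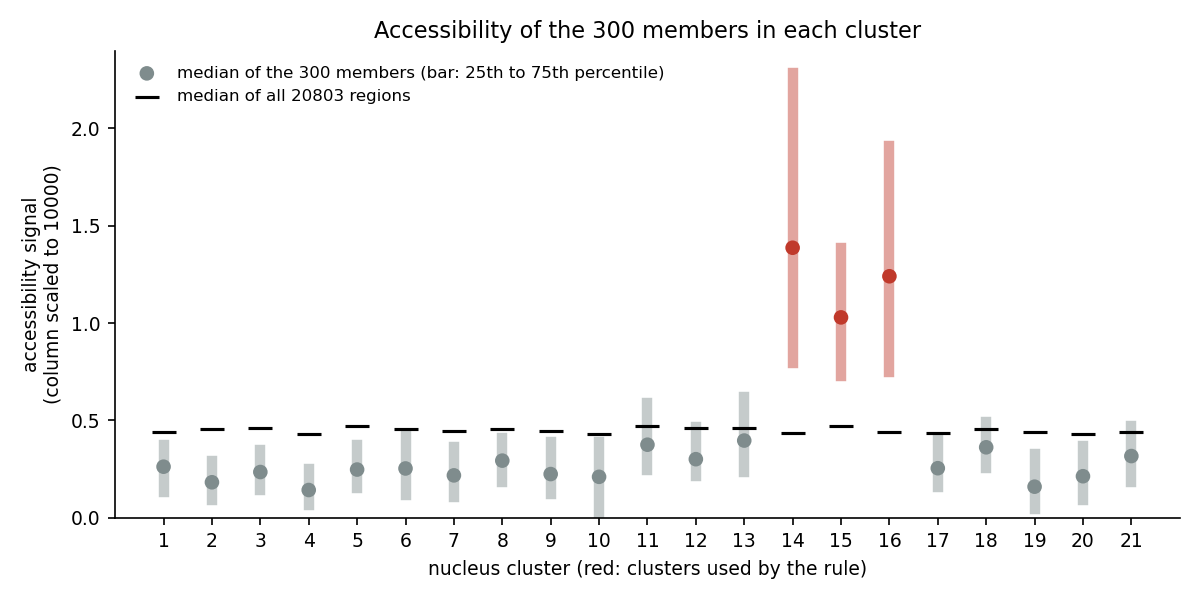
Accessibility signal (columns scaled to 10000) of the 300 members in each of the 21 nucleus clusters. Points are medians, bars run from the 25th to the 75th percentile, and black dashes are medians of all 20803 regions. Members stand at 1.39, 1.03 and 1.24 in clusters 14, 15 and 16, the clusters the rule used, and below the dash in the other 18.

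The last regions inside the limit were chr5:16092494-16093690, chr5:20144942-20146799 and chr1:18007292-18012961, each at a ratio of 2.63. The first ones outside were chr4:10914425-10914842 and chr5:18599770-18600331 at 2.62 and chr1:27558596-27559853 also at 2.62. The limit therefore falls within a continuous series of values, and 699 regions had a ratio of 2 or more. Coordinates are those of the deposited table, on the TAIR10 build.

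The 3 clusters did not share the members evenly. Among clusters 14, 15 and 16, the highest value was in cluster 14 for 141 members, in cluster 15 for 46 and in cluster 16 for 113. In 96 members all 3 clusters exceeded every other cluster. In 10 members a cluster outside the 3 was the highest of all 21. The column of cluster 15 was the least variable of the 3 over all regions, with an SD of 0.182 against 0.342 in cluster 14 and 0.315 in cluster 16, and the part of this in the counts was not tested.

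**Figure D2:**
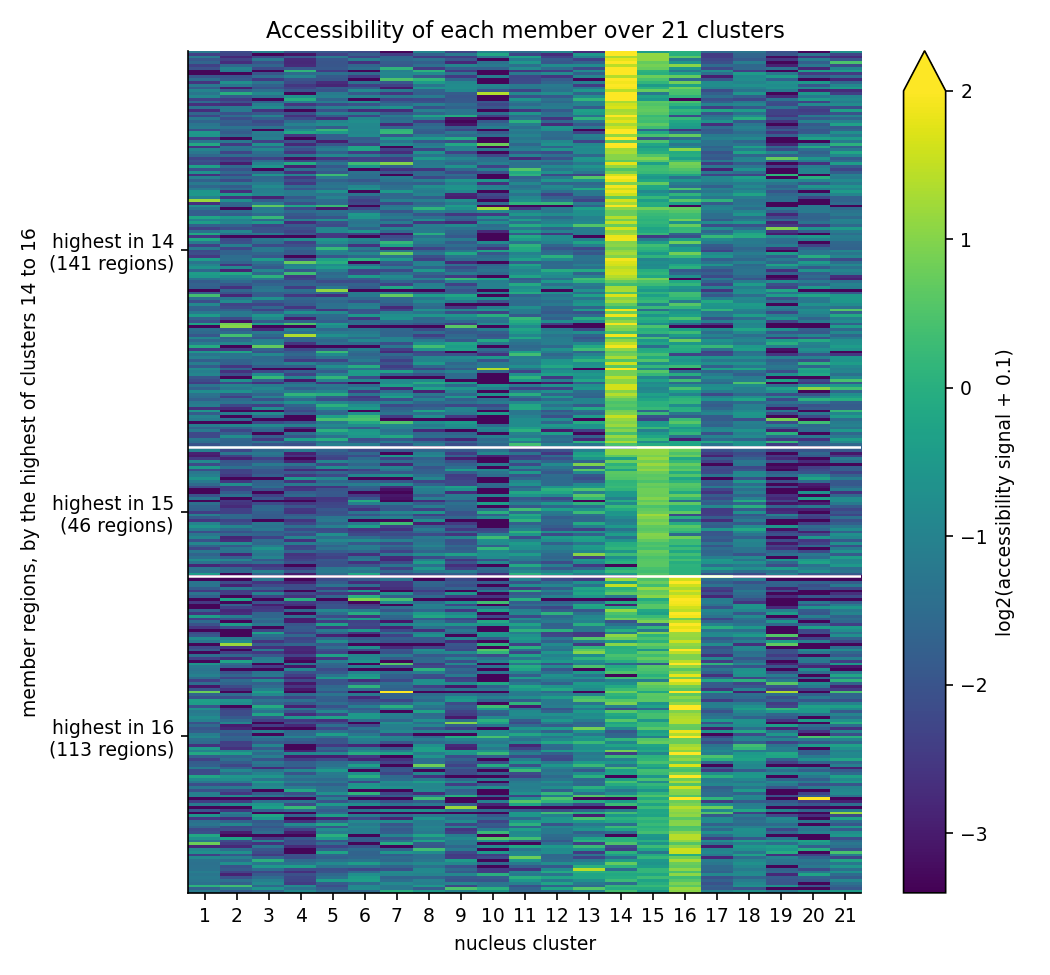
Each row is 1 of the 300 members and each column 1 of the 21 clusters, with colour giving log2(accessibility signal + 0.1) and values above the scale shown in its top colour. Rows are grouped by the highest of clusters 14 to 16 (141, 46 and 113 regions) and then ordered by ratio, and each group is brightest in its own column.

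The region with the highest ratio, 13.3, was chr1:3245433-3245441, whose coordinates span 8 bp, inside the sucrose transporter gene SUT4 (AT1G09960). It was listed at 0 in 18 of 21 clusters, among them cluster 14, and at 2.12 in cluster 15, 6.33 in cluster 16 and 2.16 in cluster 17. The depth behind so small a region is unknown. SUT4 RNA was low, at 0.0309, 0.0603 and 0 in clusters 14 to 16. In second place, chr1:15979320-15979689 lay in the chloroplast movement gene PMI1 (AT1G42550). Its signal was 2.16, 1.32 and 2.92 in clusters 14, 15 and 16 and between 0 and 0.394 in the others, with a median of 0.0982. None of the other 18 clusters reached the lowest of the 3.

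The third, chr2:10024085-10024588, lay in AT2G23540 and was by far highest in cluster 14, at 7.42, with 0.649 and 0.918 in clusters 15 and 16 and at most 0.523 elsewhere. Nucleus RNA of AT2G23540 was also highest in cluster 14, at 47.0, 1.89 and 0.143 per 10000, though clusters 15 and 16 stood in the other order. The fourth, chr1:12703325-12703868, stood between AT1G34650 and the suberin regulator gene MYB93 (AT1G34670), with no coding gene within 2000 bp of its midpoint. It was at 4.61, 2.08 and 0.910, against 0 to 0.792. The fifth, chr5:1484283-1485110, lay at AT5G05030 and was highest in cluster 16 (4.40).

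Among the next 7, chr4:9883187-9885388 overlapped MYB39 (AT4G17785), a MYB factor that promotes suberin formation. It was open to a similar degree in all 3 clusters, at 2.02, 2.06 and 1.62, against 0.109 to 0.397 elsewhere with a median of 0.179. The region chr1:23747070-23747477 at the transcription factor gene WRKY56 (AT1G64000) was at 3.38 and 2.06 in clusters 14 and 15 and at 0.311 in cluster 16, within the range of the others (0 to 0.372). The regions chr1:12077494-12079094 and chr1:12080927-12081412 by AT1G33320 were instead high in clusters 15 and 16, at 2.15 and 2.39 and at 2.47 and 2.32. Cluster 14 was at 0.921 and 0.183 there. The regions chr3:8301566-8301993 and chr3:8302962-8303489 lay next to each other, between AT3G23245 and AT3G23250, and were at 4.43, 1.54 and 0.581 and at 2.69, 1.17 and 2.92. The region chr3:13531251-13532027 by AT3G32980 was at 2.37, 2.04 and 1.44, against 0.00798 to 0.695.

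Regions with the widest lead of 1 cluster over the other two of the 3 showed how separate the openings could be. In cluster 14 these were chr1:17122953-17123912 at the lipase-like gene TLL1 (AT1G45201), chr3:124364-124765 in the E2F-like gene DEL3 (AT3G01330), chr5:4708759-4709158 in AT5G14600 and chr1:18503040-18503475 in the plastid protease gene CLPR1 (AT1G49970). The TLL1 region was at 4.70, 0.216 and 0.0652, and TLL1 RNA at 76.8, 0.551 and 0.171 per 10000. The DEL3 region was at 3.51, 0.0817 and 0.132, but DEL3 RNA was at 0.0142, 0.00444 and 0.0236, under its mean of 0.178 in the other clusters. RNA of AT5G14600 and CLPR1 stayed under 0.5 in every cluster, and their values in cluster 14, 0.0321 and 0.266, lay below their means in the other clusters, 0.0713 and 0.304. Of these 4 genes, TLL1 alone had more RNA in cluster 14 than in the other clusters.

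In cluster 15 the widest leads were smaller, and belonged to chr2:12595874-12597358 at the tropinone reductase gene TRI (AT2G29330), chr5:15665062-15665386 by AT5G39130, chr1:8697082-8698606 by CYP86C1 (AT1G24540) and chr3:10535734-10536289 by AT3G28270. The TRI region was at 0.601, 2.20 and 0.115, and TRI RNA at 0.396, 9.05 and 0.744. Of the others, AT5G39130 RNA did not exceed 0.0399 in any cluster, and CYP86C1 and AT3G28270 had no row in the RNA tables. In cluster 16 the leads belonged to chr4:14305015-14305419 in AT4G29020, chr3:9888847-9889472 in the camalexin synthesis gene PAD3 (AT3G26830), chr5:3319620-3320834 at the meristem regulator gene AIL6 (AT5G10510) and chr1:10086229-10087762 in AT1G28710. The AT1G28710 region was at 0.0866, 0.422 and 5.14, and its RNA at 0.210, 0.227 and 8.72. The AIL6 region was at 0.231, 0.162 and 4.67, with RNA at 0.00720, 0.0803 and 0.318 and a highest value of 2.52 in cluster 10.

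Members were narrower and lay more often between genes than regions in general. Their median width was 745 bp (25th to 75th percentile 405 to 1486) against 1714 bp (830 to 3564) over all regions. Of the members, 36.3% overlapped no coding gene, against 14.3% of all regions. The midpoint of 40% lay in a coding gene, against 58.1%. By width, no coding gene was overlapped by 55.8% of members and 41.9% of all regions up to 500 bp, by 35.4% and 25.9% from over 500 to 1000 bp, and by 19.3% and 6.31% over 1000 bp. The share was higher for members in each of these classes, and widths can still differ within a class. Chromosomes 1 to 5 held 88, 46, 68, 38 and 60 members, with the largest excess over the share of all regions on chromosome 3 (22.7% against 19%).

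Clusters with no signal were common among the members, above all the narrow ones. At least 1 cluster was listed at 0 in 49% of members and 14.5% of all regions. The share was highest among the narrowest, at 89.4% of members and 71.8% of all regions up to 500 bp. Clusters 10, 19 and 20 were most often at 0 among the members, in 29.3%, 18.7% and 17.7%. Over all regions they were at 0 in 8.47%, 4.08% and 3.1%. The part of this in the choice of members was not tested, and RNA results are therefore also given by width.

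Members tended to sit side by side. Of the 300, 69 (23%) were next to another member in the order of the region table, in 30 runs. Members made up 1.44% of all regions. A region can have a member on either side, so these shares are not directly comparable. The longest run held 6 members, from chr3:13033296 to chr3:13042506 around AT3G32030, which had 3 linked members. All 6 had ratios between 2.68 and 6.28. RNA of AT3G32030 was at 0.780, 2.40 and 4.52 in clusters 14, 15 and 16 and at 0 to 2.41 in the others, with the high end in cluster 12, so that cluster 16 stood above all others and cluster 14 did not. Another run of 3 lay from chr3:13525344 to chr3:13532027 around AT3G32980, whose RNA reached 33.1, 107 and 35.5 against 1.62 to 12.8.

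A run of 3 members lay by the MYB93 gene, from chr1:12703325 to chr1:12710300, and 2 of them were linked to it. Its middle one, chr1:12706602-12707789, was at 2.60, 1.73 and 1.97 against 0.0358 to 0.489, so that all 3 clusters lay above all others. The run at the fatty acyl reductase genes, which make the fatty alcohols of suberin, was on chromosome 3. FAR5 (AT3G44550) had 3 members, at chr3:16135092-16136543, chr3:16137165-16139014 and chr3:16139963-16140304, and its neighbour FAR4 (AT3G44540) had chr3:16128356-16129786. The FAR4 region was at 4.57, 0.790 and 0.280. The FAR5 regions were at 3.12, 1.46 and 0.643, at 1.18, 1.77 and 1.23, and at 3.96, 1.28 and 0.245. Of these 4 neighbours 3 were thus highest in cluster 14 and 1, the FAR5 region in the middle, in cluster 15. A run of 3 with no coding gene within 2000 bp of any midpoint lay from chr3:18060376 to chr3:18067814, between AT3G48740 and AT3G48750. This run was picked after its values were seen.

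RNA of neighbouring genes was not used to choose the members. A gene was linked to a region if it was the coding gene nearest the region's midpoint and within 2000 bp of it, which gave 254 members (84.7%) a gene, against 93.2% of all regions. They carried 235 different genes, of which 181 had a row in the RNA tables and 54 did not. Of these 181, 123 reached 0.5 per 10000 in their highest nucleus cluster. The mean of clusters 14 to 16 was at least 2-fold above the mean of the other 18 (0.1 added to each) for 79 of the 123, or 64.2%, against 8.13% of the 8524 genes linked to any region. It was at least 2-fold lower for 12, or 9.76%, against 21.1%. The median log2 ratio was 2.21, against -0.35.

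Some genes passed that floor only through clusters 14 to 16, since 81 of the 123 also reached it elsewhere, so the count with no floor stands beside it. With no floor, 84 of 181 genes (46.4%) were 2-fold higher, against 5.25% of 13803, and 12 were 2-fold lower, or 6.63% against 13.2%. The shares by width, rank and class that follow rest on genes past the floor, which fixes part of them. They were not taken without it. The share of higher genes was 53.3% of 30 for members up to 500 bp, 57.6% of 33 from over 500 to 1000 bp and 77.5% of 71 over 1000 bp, against 6.5%, 5.98% and 8.48% of genes linked to any region of those widths. It was 78.4%, 66.7% and 56.9% for ranks 1 to 100, the next 100 and the last 100 members by ratio, and 52.0% for the next 300 regions. It was 74.4% of 43 genes for the members in which all 3 clusters exceeded every other, and 61.6% of 86 for the rest. If cluster numbers were assigned to accessibility nuclei by their likeness to RNA clusters, this agreement between the tables is partly built in, and the files cannot tell this apart.

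**Figure D3:**
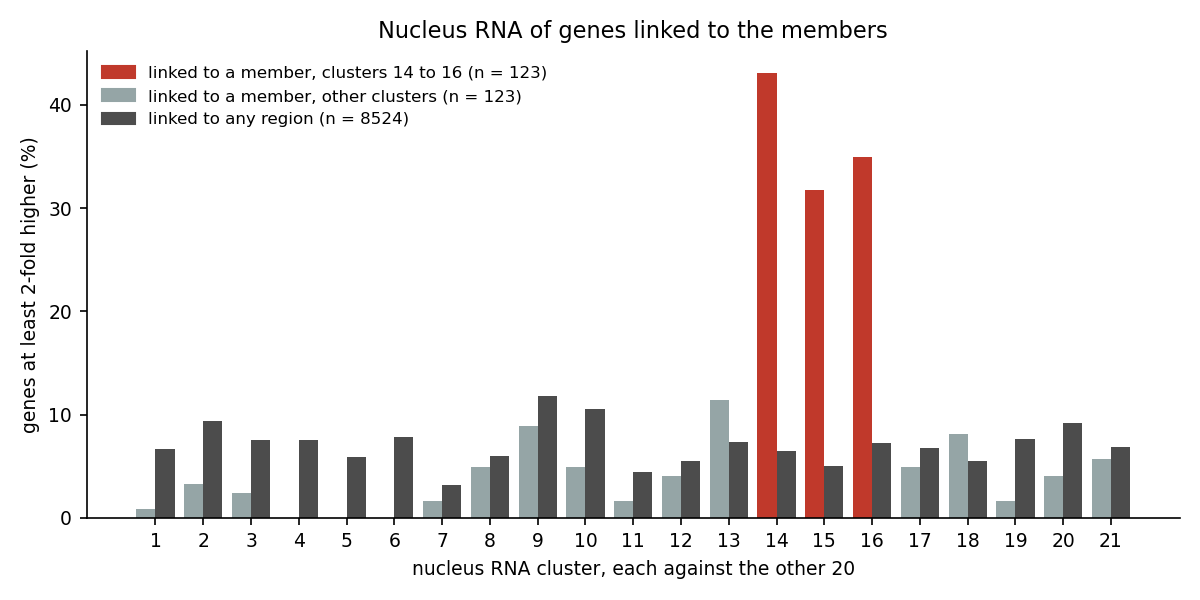
Percentage of genes at least 2-fold higher in each nucleus RNA cluster than in the mean of the other 20, for genes linked to a member (n = 123) and to any region (n = 8524). Genes linked to a member reach 43.1%, 31.7% and 35% in clusters 14, 15 and 16 and at most 11.4%, in cluster 13, elsewhere.

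Taken cluster by cluster against the other 20, the linked genes were 2-fold higher in cluster 14 for 43.1%, in cluster 15 for 31.7% and in cluster 16 for 35%. Genes linked to any region gave 6.49%, 5.01% and 7.29%. Outside the 3 the share was highest in cluster 13, at 11.4% against 7.34%, then in clusters 9 and 18, at 8.94% and 8.13% against 11.8% and 5.53%. It was 0% in clusters 4, 5 and 6, where genes linked to any region gave 7.58%, 5.91% and 7.86%. All these shares by cluster rest on the 123 genes past the floor, and only 81 of them reached it outside clusters 14 to 16. The floor therefore raises the shares of these 3 clusters and lowers the others, and shares by cluster were not taken without it. The nucleus cluster with the highest RNA was 14, 15 or 16 for 84 of the 123 linked genes (68.3%), against 13.5% of genes linked to any region. The floor fixes part of this count, since 81 of the 123 reached it in a cluster other than these. With no floor, 101 of the 174 linked genes with any RNA had their highest value in cluster 14, 15 or 16 (58.0%), against 11.8%.

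Genes with high RNA in these clusters were linked to a member more often than linked genes in general. Of the 693 genes linked to any region that were 2-fold higher in clusters 14 to 16, 79 (11.4%) were linked to a member. The share was 1.5% of all linked coding genes. With 235 genes linked to a member, most of the 693 could not have one. The 79 made up 33.6% of the 235 linked genes. Of 101 genes that were 8-fold higher, 33 (32.7%) were linked to a member.

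The largest difference belonged to AT1G43020, with RNA at 0.119, 0.0788 and 35.5 per 10000 in clusters 14, 15 and 16 and a highest value of 0.581 elsewhere. Its region, ranked 24, was at 0.0366, 1.41 and 3.53. FAR5 was at 36.2, 6.33 and 0.185, against 0.0552 to 0.324, and FAR4 at 31.1, 2.29 and 0.166, against 0 to 0.876. KCS2 (AT1G04220), an elongase that lengthens fatty acids for suberin, was at 32.9, 17.9 and 1.57, against 0.148 to 1.08. These 3 suberin genes shared the order of clusters 14, 15 and 16.

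Of the rest of the 12 largest differences, TLL1, AT2G23540, the transcription factor genes NAC038 (AT2G24430) and WRKY56, and AT1G49960 were highest in cluster 14. NAC038 was at 7.72, 0.0221 and 0, against at most 0.0424, and WRKY56 at 8.83, 1.47 and 0.0506. In cluster 16 were AT2G22620, with 2 members and RNA at 0.450, 0.189 and 28, and the peroxidase gene PER9 (AT1G44970), which acts on lignin of the Casparian strip, at 0.0662, 0.105 and 18.9. AT4G17215 was high in clusters 14 and 16, at 7.50 and 14, with 1.14 in cluster 15. No gene of these 12 was highest in cluster 15.

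Linked genes were also more often higher in whole cells of clusters 15 and 16. In the whole-cell table, which lacks cluster 14, 44 linked genes reached 0.5 per 10000, and 18 of them (40.9%) were at least 2-fold higher in the mean of clusters 15 and 16 than in the other 18, against 7.81% of 4599. A further 6 were lower (13.6% against 29.6%), and the median log2 ratio was 0.84 against -0.52. With no floor the share was 13.8% of 181 against 3.13%, and 3.31% were lower against 10.1%. By cluster, over the 44 genes past the floor, it was 47.7% in cluster 16, 36.4% in cluster 15, 29.5% in cluster 13 and 20.5% in cluster 18. Genes linked to any region gave 7.87%, 5.70%, 6.28% and 6.65% there. Clusters 17, 19 and 21 were each at 13.6%, against 8.44%, 8.24% and 8.55%. The rest were at most at 9.09%, in cluster 20, against 8.98%. How many of the 44 passed the floor only through clusters 15 and 16 was not counted. In clusters 15 and 16 these shares were above those in nuclei, 31.7% and 35%, over another set of genes past the floor. AT4G17215 was at 0.691 in cluster 15 and 11.7 in cluster 16, against a mean of 0.0525 in the others, and PER9 at 0.504 and 3.14 against 0.00449. Of the genes highest in cluster 14 of the nucleus table, FAR4, NAC038, WRKY56, AT2G23540 and AT1G49960 were listed at 0 in every whole-cell cluster. These zeros are thus not particular to clusters 15 and 16.

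The rule fixed the mean of clusters 14 to 16 but not which of them was highest, and the linked genes followed the regions in this. Of 137 pairs of a member and its linked gene past the floor, 84 (61.3%) were highest in the same cluster of the 3, against 45.3% of 10838 pairs over all regions. Of 69 members highest in cluster 14, 44 had a gene highest there (63.8%, against 42.5% over all regions). Of 48 highest in cluster 16 the count was 30 (62.5% against 41.7%), and of 20 highest in cluster 15 it was 10 (50% against 51.0%). These shares thus exceeded those of all regions for clusters 14 and 16 and not for cluster 15, but their base rates differed. Whatever the region, the linked gene was highest in cluster 14, 15 and 16 in 57, 32 and 48 of the 137 pairs. Over all regions the counts were 3229, 4472 and 3137 of 10838. Genes highest in cluster 15 were thus a smaller part of the member pairs, and the equal shares for cluster 15 do not show equal agreement.

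Median RNA had the same order. Genes linked to members highest in cluster 14 had medians of 1.27, 0.384 and 0.117 per 10000 in clusters 14, 15 and 16. The medians were 0.315, 1.14 and 0.511 for those of cluster 15 and 0.226, 0.268 and 1.25 for those of cluster 16. Over the 137 pairs, the log2 ratio of cluster 14 to cluster 16 in accessibility and in RNA had a Pearson correlation of 0.61 and a Spearman correlation of 0.66, and over all 10838 pairs they were 0.32 and 0.29. These describe sites that share the same pooled libraries, and a gene with several members enters more than once.

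**Figure D4:**
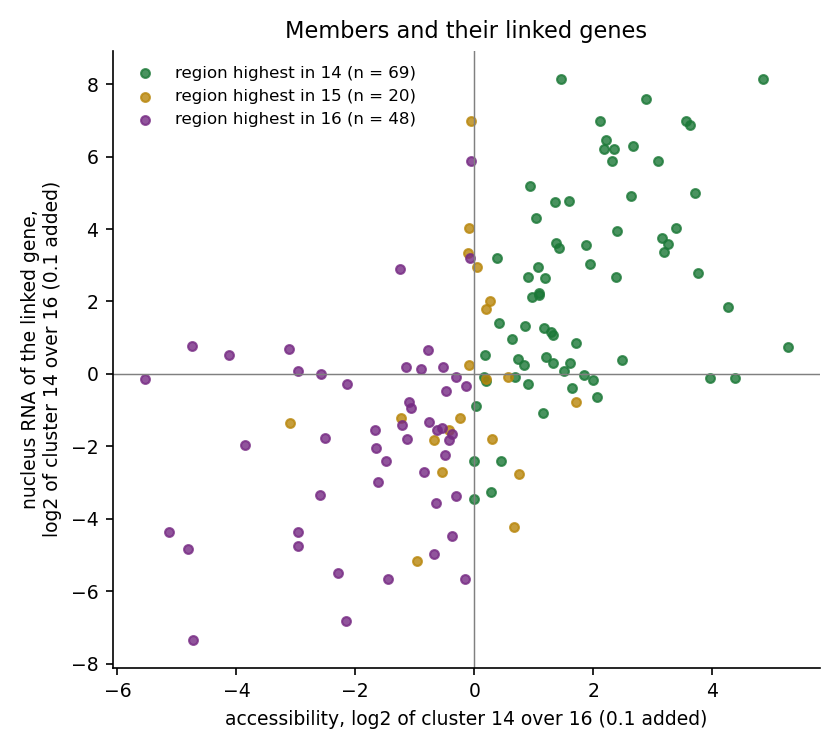
Each of the 137 points is a member and its linked gene, with log2 of cluster 14 over cluster 16 in accessibility on the x axis and in nucleus RNA on the y axis (0.1 added to each value). Points are coloured by the cluster of the 3 in which the region is highest (69, 20 and 48 pairs), and most of those for cluster 14 lie at the upper right and of those for cluster 16 at the lower left.

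Suberin genes were well represented among the members. Of 25 listed genes 22 were linked to any region and 9 of these to a member (40.9%), against 1.5% of the 15691 coding genes linked to any region. They were the enzyme genes FAR4, FAR5, KCS2, CYP86B1 (AT5G23190), a hydroxylase of very long fatty acids, and LACS2 (AT1G49430), which activates fatty acids. They also included the regulator genes MYB39, MYB92 (AT5G10280), MYB93 and MYB107 (AT3G02940). MYB53 (AT5G65230) overlapped a member, chr5:26065507-26069151, that was linked to another gene, which made 10 of 25. With cluster 14 left out of the ratio, 5 of the suberin genes were linked to one of the top 300 regions. The list was drawn up with earlier results of these data known.

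All 9 were at least 2-fold higher in nucleus RNA of clusters 14 to 16, as were all 23 listed suberin genes past the floor, with or without a member. The floor fixed part of this count. CYP86B1, LACS2 and MYB93, for example, passed it only through these clusters, with at most 0.139, 0.271 and 0.105 elsewhere. Below the floor, ABCG1 (AT2G39350) was not higher, with a log2 ratio of -0.15, and MYB41 (AT4G28110) was, at 1.82. CYP86B1 was at 6.02, 2.62 and 0.278, LACS2 at 10.9, 0.983 and 0.0259, and MYB93 at 5.97, 0.765 and 0.563. The regulators did not share a cluster. MYB92 was highest in cluster 16, at 2.32, 3.43 and 23.3, MYB39 in cluster 15, at 0.0672, 0.961 and 0.480, and MYB107 was close in clusters 14 and 15, at 1.01, 1.07 and 0.424. Of the suberin genes with no member, ABCG6 (AT5G13580) came nearest to the limit, with a ratio of 2.50. CYP86A1 (AT5G58860), the hydroxylase that makes most root suberin acids, followed at 2.35, and its region was at 2.37, 0.486 and 0.659. GPAT5 (AT3G11430), an acyltransferase of suberin, lay in a region that spans 21783 bp and 6 coding genes, with a ratio of 1.15.

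Casparian strip genes had fewer members than suberin genes, and their summed RNA was highest in cluster 16. Of 26 listed genes 15 were linked to any region and 2 of these to a member (13.3%, against 1.5% of all linked coding genes), MYB36 (AT5G57620) and PER9. The 2 became 4 with cluster 14 left out of the ratio and 1 with cluster 16 left out. The region of MYB36 that passed, chr5:23333644-23334880, was at 1.57, 0.915 and 1.57, with its highest other value, 1.34, in cluster 13. MYB36 RNA was at 0.447, 1.46 and 5.88, and cluster 13 stood at 5.16, close to cluster 16. The region with the highest ratio at each listed gene had a median ratio of 1.53 for the Casparian strip list and 1.99 for the suberin list, against 1.03 for all coding genes. It exceeded 1 for 21 of 26 and 25 of 25 genes, against 56.1% of all coding genes with a region.

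CASP1 (AT2G36100), a membrane scaffold protein of the strip, was at 93.3 per 10000 in RNA of cluster 16, but its region had a ratio of 0.97. That region is 13812 bp wide, covers 4 coding genes and was at 0.305, 0.588 and 0.463, against a mean of 0.471 elsewhere. ESB1 (AT2G28670), a dirigent protein that places lignin, was at 69.2 in RNA with a ratio of 1.48, and PER64 (AT5G42180), a peroxidase of the strip, at 57.0 with a ratio of 1.56. Nearest to the limit were the copper protein gene UCC1 (AT2G32300) at 2.61 and DIR18 (AT4G13580) at 2.57. In these accessibility values the regions of CASP5 (AT5G15290) and DIR16 (AT3G24020) were highest in cluster 16 of the 3, at 1.55 and 1.37. In RNA, 20 of the 25 listed genes past the floor were at least 2-fold higher in clusters 14 to 16 and 3 lower. Some of the 20, such as CASP4 (AT5G06200) with at most 0.402 elsewhere, passed the floor only there. The lower ones were CIF2 (AT4G34600), LOTR1 (AT5G50150) and CASPL1D1 (AT4G15610), with log2 ratios of -2.89, -2.11 and -1.21. The regions compared had a median width of 4935 bp for the Casparian strip list and 6961 bp for the suberin list, and the part of width in the ratios was not tested.

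**Figure D5:**
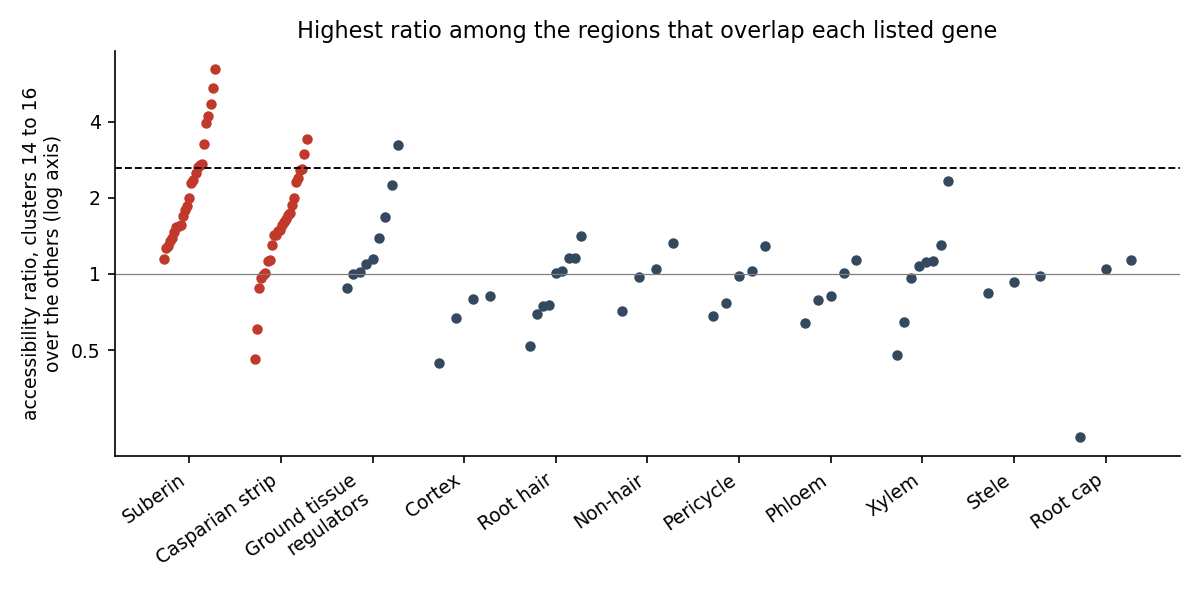
For each listed gene, the highest accessibility ratio (mean of clusters 14 to 16 over the mean of the other 18, 0.1 added, log axis) among the regions that overlap it, with 1 point per gene. The dashed line is the lowest ratio of a member (2.63), which 9 suberin genes, 2 Casparian strip genes and 1 ground tissue regulator reach and no gene of the other 8 lists does.

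Of 9 ground tissue regulators, 1 was linked to a member: the BIRD zinc finger gene BLJ (AT1G14580). Its region was at 0.434, 1.54 and 1.59, and its RNA at 0.128, 0.825 and 0.841, so both were lower in cluster 14 than in 15 and 16. SHR (AT4G37650) and SCR (AT3G54220) had ratios of 1.39 and 1.14, and the BIRD gene JKD (AT5G03150) 2.25. No listed gene of cortex, root hair, non-hair, pericycle, phloem, xylem, stele or root cap was linked to a member, 0 of the 35 linked to any region, which is close to the 1.5% of all linked coding genes. Their median ratios lay between 0.731, for 4 cortex genes, and 1.10, for 8 xylem genes.

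Members were linked to genes of 4 transcription factor families that were picked after the linked genes were seen, so their counts are a description only. They were 8 of 87 MYB, 3 of 61 NAC, 3 of 53 WRKY and 4 of 21 bZIP genes linked to any region. These shares were 9.2%, 4.92%, 5.66% and 19%, against 1.5% of all linked coding genes. Apart from the suberin and Casparian strip regulators the MYB genes were MYB52 (AT1G17950), MYB67 (AT3G12720) and MYB105 (AT1G69560). The region of MYB67 was at 5.33, 0.771 and 0.312 and its RNA at 3.1, 0.0101 and 0. MYB105 stayed under the floor, at 0.245 in cluster 14 and listed at 0 in the other 18 clusters.

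Against the trend, 12 linked genes had RNA at least 2-fold lower in clusters 14 to 16. The lowest was AT3G59370, at 0.0696, 0.0470 and 0.0879 against a highest value of 19.1 in cluster 20, while its member was at 0, 0.818 and 4.54 in clusters 14, 15 and 16. The sucrose symporter gene SUC1 (AT1G71880) was at 0.0834, 0.0481 and 0.0501, against 2.39 in cluster 20, with a region at 2.27, 0.873 and 0.680. AT4G29020, AIL6, the chaperonin gene HSP60-2 (AT2G33210) and DEL3 followed, with log2 ratios of -1.65, -1.49, -1.48 and -1.29. For 7 of these 12 genes the linked member of highest ratio was up to 500 bp wide, as it was for 27 of the 123 linked genes past the floor.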

How the data were processed

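The accessibility table gives 1 deposited average signal per region and cluster over 2 ATAC libraries, and each RNA table gives the authors' average signal per gene and cluster, with each RNA column summing to 10000. The submitters' notes on processing name the TAIR10 build, Signac 0.2.5, Seurat 3.1.5, Cell Ranger ATAC 1.2 and Cell Ranger 3.1.0, with no roles. How regions were called and doublets treated is not given in the sources used here. Members and lists were chosen with earlier results of these data known. Genes named were those of the 12 members with the highest ratio, of the members at the limit, of the 4 with the widest lead of each of clusters 14 to 16, the 12 linked genes of highest and 6 of lowest RNA ratio, listed genes, and genes with 3 or more members. A RefSeq table (TAIR10.1), in which all 23241 genes of the RNA tables were found, gave names and neighbours and holds no strand, so the nearest coding gene replaced the planned nearest gene start and no side is given. Planned motif shares were not run, since no genome was used here. Calculations, in Python 3.11.15 with pandas 2.3.3, NumPy 2.4.6 and Matplotlib 3.10.9, were tested on simulated data.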

Additional observations from a re-analysis of the deposited data

How the results depend on the processing

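No paired analysis was possible because the tables hold averages over pooled libraries, and for the same reason no replicate could be left out. Of 87 alternative values, 64 stayed within the 95% Wilson interval of the reported percentage, or within 1.5 times the reported count, and 23 moved. The cause was not tested. The interval is wider where fewer genes are counted, so it serves only as a yardstick and is no replicate error. For the 44 whole-cell genes it ran from 27.7% to 55.6%. Shares of 30.8% with cluster 16 left out and 53.1% with cluster 14 left out therefore counted as within it. The share of linked genes higher in nucleus RNA (64.2%) was 78.4% with 100 regions, 50.7% with 1000, 46.4% with no RNA floor, 75.8% with a floor of 2, 49.6% with an RNA offset of 0.5 and 54.5% at 4-fold. It was 36.8% when every overlapping and flanking gene was linked, against 8.11% for all regions. The whole-cell share (40.9%) was then 21.7%, and 13.8% with no floor, 20.5% with an offset of 0.5 and 27.3% at 4-fold. The same-cluster share (61.3%) was 48.2% with overlapping and flanking genes. Links to every flanking gene, members wider than 500 bp and members at 0 in no cluster were tried after seeing the data, and the last 2 gave 69.7% and 70.2% for nucleus RNA. The 2 Casparian strip genes became 4 with a ratio offset of 1, with the highest in place of the mean of the other columns, and with cluster 14 left out of the numerator. They became 1 with the median of the other columns, with cluster 16 left out and with links within 500 bp, and 0 and 6 with 100 and 1000 regions. The 9 suberin genes became 5 with 100 regions and with cluster 14 left out. A coding gene lay within 1000 bp of the midpoint in 73.3% of members (86.5% of all regions) and within 500 bp in 62.3%. Leaving cluster 14, 15 or 16 out of the numerator kept 197, 249 and 222 of the 300 members, and the highest in place of the mean of the others kept 176. Depth is unknown, so regions with few fragments cannot be told from regions open in few nuclei.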
